A study of Homo sapiens with 16 samples.

Results

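CTCF and p53 peaks were examined at 9 genes of the epithelial-mesenchymal transition (EMT). The genes were the epithelial marker CDH1, the mesenchymal markers CDH2, VIM and FN1, and the transcription factors ZEB1, ZEB2, SNAI1, SNAI2 and TWIST1, chosen by name. Every peak within 50 kb of a gene body in any of the 8 deposited peak lists was taken, which gave 40 of 76863 peaks. Peaks of different libraries that shared at least 1 base were joined into 1 site. The 40 peaks formed 17 of the 29064 CTCF sites and 1 of the 2980 p53 sites. The 9 genes were compared with 20090 protein-coding genes of GENCODE lifted to GRCh37, whose own windows were drawn the same way.

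The study mapped both factors by ChIP-seq in MCF10A, an immortalised but non-tumorigenic human mammary epithelial line, before and after transformation with oncogenic HRAS (labelled H-RAS Gv12 in the deposit, G12V cells in the text below). The oncogene was delivered with a lentiviral vector and carrying cells were selected with hygromycin, and no isolation of clones is described for the G12V cells. Both cell types were used within a few passages, and all p53 libraries of both came from cells treated before fixation with Nutlin, a small molecule that keeps MDM2 from binding p53. No p53 library without Nutlin was examined, and each factor and cell type had 2 libraries.

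In EMT, epithelial cells lose their junctions and polarity and take on a motile, mesenchymal form. ZEB, SNAIL and TWIST proteins bind E-box sequences and repress E-cadherin, the adherens junction protein encoded by CDH1, while N-cadherin (CDH2), vimentin (VIM) and fibronectin (FN1) rise. CTCF is a zinc finger protein that halts the extrusion of chromatin loops by cohesin at oriented copies of its motif, and p53 is a stress-activated tumor suppressor that binds as a tetramer to a pair of adjacent decamers.

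CTCF peaks lay near 8 of the 9 genes, beside 85.7% of all protein-coding genes, and FN1 had none. CTCF was called in all 4 libraries at 2 sites, one 3841 bp upstream of SNAI1 and one in an intron of CDH1. A CTCF site in an intron of ZEB1 was called in both MCF10A libraries and in neither G12V library. p53 had a single site, 9890 bp beyond the 3′ end of VIM, called in both MCF10A libraries and in G12V replicate 2. The other 14 CTCF sites were called in 1 to 3 libraries. Each of the 14 had a peak in replicate 2 of MCF10A or G12V cells, the libraries with the longest CTCF lists. Those libraries had a peak at 69.2% (MCF10A) and 95.2% (G12V) of all CTCF sites, so most sites of the genome met this condition too.

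The sequences under the sites that carry these results are given first. Each is the 150 bases around the summit on the plus strand of GRCh37 (hg19), and the capitals mark the best match to the factor's motif, which reads as the reverse complement where the match was on the minus strand. The ZEB1 site called only in MCF10A (chr10:31757320-31757469) best matched the CTCF core motif on the minus strand, with 2 mismatches in 12 letters. So did the CDH1 intron site of all libraries (chr16:68834298-68834447). Neither met the limit of at most 1 mismatch used below, so neither counted there as holding the motif.
ZEB1 intron, CTCF: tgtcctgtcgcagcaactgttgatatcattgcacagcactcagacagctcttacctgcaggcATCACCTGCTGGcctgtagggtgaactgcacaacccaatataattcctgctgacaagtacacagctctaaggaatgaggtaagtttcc
CDH1 intron, CTCF: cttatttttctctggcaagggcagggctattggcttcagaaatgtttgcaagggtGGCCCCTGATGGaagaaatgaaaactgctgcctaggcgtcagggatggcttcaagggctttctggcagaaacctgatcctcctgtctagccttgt
The strongest CTCF site of the set, upstream of SNAI1 (chr20:48595601-48595750), and the site in an intron of CDH3 upstream of CDH1 (chr16:68738309-68738458) both held the core motif without a mismatch on the plus strand, in identical letters.
SNAI1 upstream, CTCF: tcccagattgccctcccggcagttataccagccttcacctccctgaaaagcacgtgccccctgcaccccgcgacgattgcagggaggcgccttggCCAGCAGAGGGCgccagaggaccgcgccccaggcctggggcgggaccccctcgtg
CDH1 upstream, CTCF: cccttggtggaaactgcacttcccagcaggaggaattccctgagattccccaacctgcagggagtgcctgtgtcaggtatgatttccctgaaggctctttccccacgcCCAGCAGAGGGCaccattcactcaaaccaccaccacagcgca
The VIM site whose whole peak overlapped an exon (window chr10:17272732-17272881) also matched without a mismatch, on the minus strand. The label VIM exon refers to that whole peak. Its window held no untranslated exon sequence, and overlap of the window with coding sequence was not examined. On the minus strand, the site in the long transcript model of TWIST1 (chr7:19091495-19091644) matched without a mismatch as well. The site downstream of VIM (chr10:17299764-17299913) and the site upstream of CDH2 (chr18:25769464-25769613) matched there with 1 mismatch.
VIM exon, CTCF: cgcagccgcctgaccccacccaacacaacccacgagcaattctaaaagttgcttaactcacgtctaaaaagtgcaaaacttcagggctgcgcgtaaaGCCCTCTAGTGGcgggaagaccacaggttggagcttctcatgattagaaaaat
VIM downstream, CTCF: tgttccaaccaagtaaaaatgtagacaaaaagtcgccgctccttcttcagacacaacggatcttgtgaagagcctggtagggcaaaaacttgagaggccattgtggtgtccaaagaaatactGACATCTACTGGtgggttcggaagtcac
TWIST1 intron, CTCF: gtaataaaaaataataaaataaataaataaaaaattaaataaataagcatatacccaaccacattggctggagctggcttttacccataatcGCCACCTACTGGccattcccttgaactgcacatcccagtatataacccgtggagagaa
CDH2 upstream, CTCF: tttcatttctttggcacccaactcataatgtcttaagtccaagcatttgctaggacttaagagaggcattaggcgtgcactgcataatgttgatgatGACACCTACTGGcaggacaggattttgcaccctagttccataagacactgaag
The only p53 site (chr10:17289407-17289556) held both decamers with no bases between them and 1 mismatch in all.
VIM downstream, p53: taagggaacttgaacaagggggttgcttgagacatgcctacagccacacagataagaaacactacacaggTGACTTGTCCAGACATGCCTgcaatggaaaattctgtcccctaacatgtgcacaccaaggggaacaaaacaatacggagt

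The core motif with at most 1 mismatch, on either strand, was found in these windows at 6 of the 17 CTCF sites, which is 35.3% (95% exact binomial interval 14.2% to 61.7%). It was found at 52.1% of all CTCF sites, at 67.5% of those called in all 4 libraries and at 35.9% of those called in 1 library. Windows of the same length 2000 bp to the side of the summits held it in 1.22% of cases. With 2 mismatches allowed, 13 of the 17 windows (76.5%) matched, beside 80.7% of all CTCF sites and 11.1% of the side windows. The motif centres of the 6 matching sites lay 23 to 53 bp to the right of the summit on the plus strand. At CDH1, CDH2, SNAI1 and TWIST1 the motif lay on the strand of the gene, and at both matching VIM sites it lay on the opposite strand. The p53 motif with at most 3 mismatches was found at the VIM p53 site and at 70.4% of all p53 sites, beside 0.973% of the side windows. The AP-1 heptamers TGACTCA and TGAGTCA were in none of the 18 windows, and were in 2.22% of all CTCF and 6.71% of all p53 windows.

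The lists differed in length, which sets how many peaks a region can show. The CTCF lists held 11346 and 20136 peaks in MCF10A and 12004 and 27678 in G12V cells, and the p53 lists 1718 and 885 in MCF10A and 477 and 2619 in G12V cells. The ChIP reads behind each list were estimated from the genome-wide background and the scaling that the peak caller used. In units of 1e6 reads, the CTCF estimates came to 18.6 and 11.5 for the MCF10A replicates, against 13.6 and 11.4 for the G12V replicates. The p53 estimates came to 21.4 and 20.1 for the MCF10A replicates, against 9.26 and 33.2 for the G12V replicates. For CTCF, MCF10A replicate 1 had the most reads and the shortest list, and G12V replicate 2 the fewest reads and the longest list. For p53, G12V replicate 1 had both the shortest list and the fewest reads. Within each list the peaks were ranked by the deposited −log10 q value, with rank 1 the strongest, and the rank percentile runs from 0 for the weakest to 100 for the strongest peak. A list holds only regions that passed the threshold of the caller, so where a library has no peak it gives no value for that site.

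The EMT genes had 6 CTCF peaks in MCF10A replicate 1, 12 in MCF10A replicate 2, 4 in G12V replicate 1 and 15 in G12V replicate 2. Both cell types spanned a wide range, and the G12V libraries held the lowest and the highest number. The mean was 9.0 ± 4.24 (SD, n = 2) in MCF10A and 9.5 ± 7.78 (SD, n = 2) in G12V cells (exact two-sided permutation test, p = 1). As a share of each list, the peaks made up 0.0529% and 0.0596% for the MCF10A libraries, against 0.0333% and 0.0542% for the G12V libraries. The groups overlapped again, and the difference of -0.0125 percentage points had p = 0.667 in the same exact permutation test. With 2 libraries a group that test cannot go below 0.33, so no difference between the cell types could pass it here. For p53 the numbers were 1, 1, 0 and 1 in the same order (exact permutation p = 1), and the shares were 0.0582%, 0.113%, 0% and 0.0382% (exact permutation p = 0.33).

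**Figure D1:**
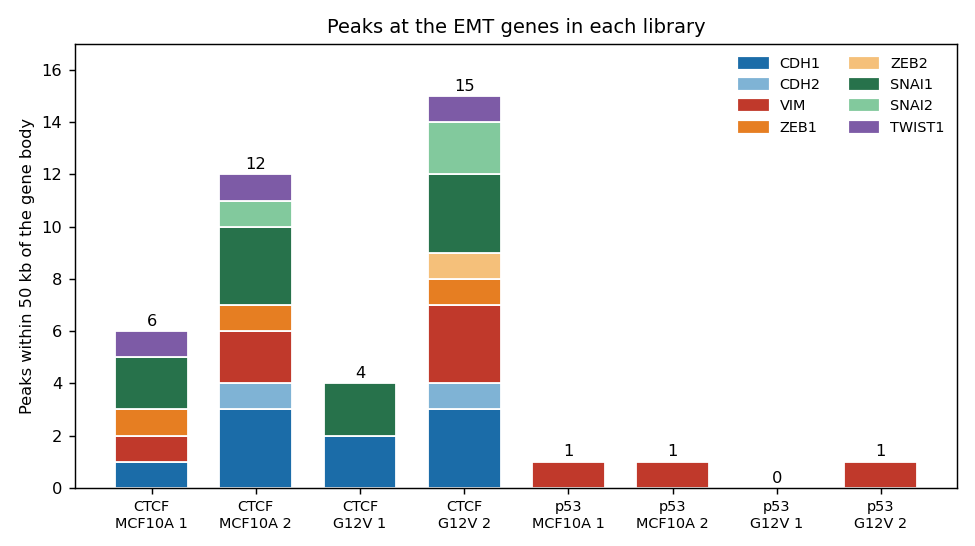
Number of peaks within 50 kb of the gene body in each library (vertical axis, peaks), with the colours of each bar giving the gene. The CTCF bars reach 6 and 12 for MCF10A, against 4 and 15 for G12V cells, and the p53 peaks all lay at VIM.

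Read per site, a CTCF peak was present in MCF10A replicate 1 at 6 of the 17 sites, where 38.9% of all CTCF sites had one. It was present in MCF10A replicate 2 at 12 sites (69.2% of all sites), in G12V replicate 1 at 4 sites (41.2%) and in G12V replicate 2 at 15 sites (95.2%). The CTCF sites called in all 4 libraries were 2 of 17, beside 27.5% of all CTCF sites. MCF10A-specific sites, with a peak in both MCF10A libraries and neither G12V library, were 1 of 17, beside 0.261% of all sites, which were 76 sites in the whole genome. G12V-specific sites, defined the other way, were 0 of 17, beside 3.33%. Sites of a single library were 6 of 17, beside 29.7%, and 5 of these were seen in G12V replicate 2 alone, beside 25.4%.

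The windows of the 9 genes covered 1.80 Mb and held 9.43 CTCF sites per Mb. The median over the 9 genes was 2 sites and 6.42 sites per Mb, beside 2 sites and 16.7 per Mb over all protein-coding genes. The density was highest at SNAI1, with 28.3 sites per Mb, and at VIM, with 27.4, and above that of 75.2% and 73.3% of genes. CDH1 (20.2 per Mb) and SNAI2 (19.2 per Mb) lay near the middle of all genes. ZEB1 (6.42), TWIST1 (5.09), ZEB2 (3.90) and CDH2 (2.90) had fewer sites per Mb, and FN1 had none, as did 14.3% of all genes. A site of all 4 libraries was present in 2 of the 9 windows (SNAI1 and CDH1) and in 51.8% of all gene windows.

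**Figure D2:**
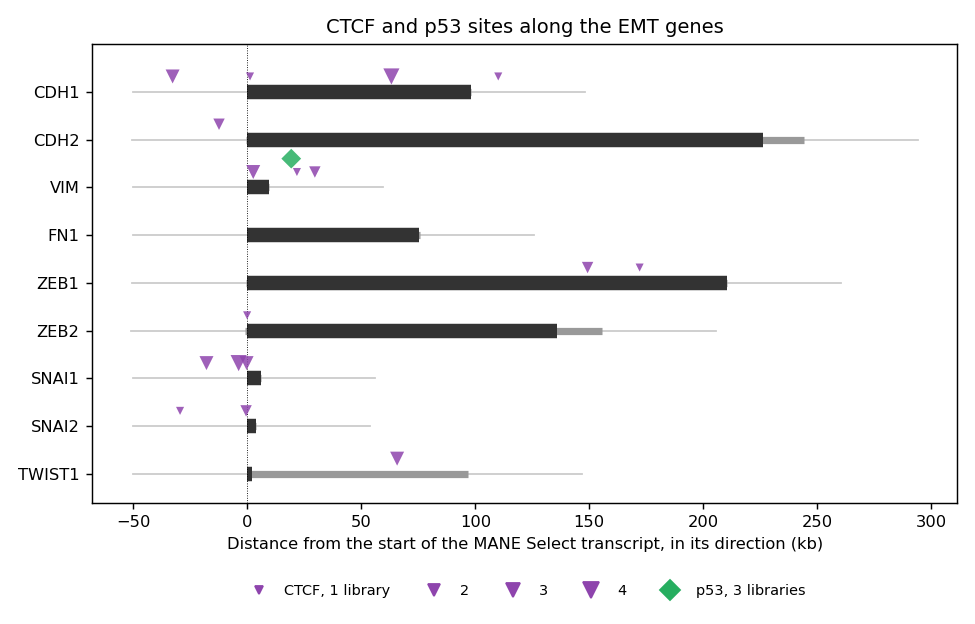
Position of the sites along each gene, as the distance in kb from the start of the MANE Select transcript (the reference transcript of each gene) in the direction of transcription. Black bars are MANE Select transcripts, grey bars the whole GENCODE gene, thin lines the 50 kb on each side, triangles CTCF sites and the diamond the p53 site, with the marker growing with the number of libraries. The VIM, SNAI1 and SNAI2 sites lie close to short genes, whereas the TWIST1 site lies far from the MANE Select transcript, in the long transcript model.

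At CDH1, the epithelial adherens junction gene, there were 4 CTCF sites. The intron site (chr16:68834183-68834564, 63178 bp after the start) was called in all 4 libraries, at rank 7083 and 4730 in the MCF10A lists and 4089 and 18369 in the G12V lists. Fold enrichment over the local background reached 6.58 and 11.4 in the MCF10A replicates, against 8.67 and 5.04 in the G12V replicates. The values of the cell types overlapped. The low fold in G12V replicate 2 stood on the largest number of fragments at the summit, 42, against 26, 38 and 20 in the other libraries in the same order. The local background there was 7.94 times the genome-wide background, against 2.02, 2.47 and 1.40 in the other libraries. The fold is the ratio of the summit to that background.

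The site upstream of CDH1 (chr16:68738248-68738579) lay 32811 bp before the start, in an intron of the neighbouring P-cadherin gene CDH3. It was absent from MCF10A replicate 1 and stood at rank 7565 in MCF10A replicate 2, 4139 in G12V replicate 1 and 12669 in G12V replicate 2, with folds of 10.9, 8.60 and 10.5. The folds of the 3 libraries differed by less than their counting intervals, and 72.5% to 90.7% of the peaks in the list of MCF10A replicate 1 had lower folds than these. The remaining sites were weak and each came from 1 library. One lay over exon 2 of CDH1 (chr16:68772157-68772416, 1156 bp after the start), at rank 17146 and fold 5.48 in MCF10A replicate 2. The other lay in an intron of TANGO6 (chr16:68881129-68881423), 11810 bp beyond CDH1, at rank 18512 and fold 9.33 in G12V replicate 2. No p53 peak lay within 50 kb of CDH1 in any list.

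Of the mesenchymal markers, CDH2 had a single CTCF site (chr18:25769396-25769681), 11629 bp upstream of the gene. It was called in replicate 2 of each cell type and in replicate 1 of neither, at rank 13871 and fold 8.58 in MCF10A and rank 10140 and fold 14.9 in G12V cells. The counting intervals overlapped (5.21 to 13.4 and 10.1 to 21.1, 95% Poisson intervals of the fragments at the summit, which cover counting error only). The nearest CTCF peak was 439041 bp away in MCF10A replicate 1 and 439060 bp away in G12V replicate 1.

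VIM, the gene of the intermediate filament vimentin, had 3 CTCF sites and the p53 site. The whole peak of 1 CTCF site (chr10:17272588-17273051, summit 2567 bp after the start) overlapped exon 3 of the MANE Select transcript. Taken over all VIM transcript models, the peak overlapped both coding and untranslated sequence. This site was called at rank 9472 and 5362 in MCF10A and 10526 in G12V replicate 2, with folds of 5.80, 11.4 and 14.1. It was missing from G12V replicate 1, which had no CTCF peak within 50 kb of VIM at all. The MCF10A replicates differed more from each other than MCF10A replicate 2 did from G12V replicate 2.

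Of the sites beyond the 3′ end of VIM, the one 20247 bp away (chr10:17299665-17300035) was again called only in replicate 2 of each cell type, at rank 15152 in MCF10A and rank 4457 in G12V cells. Its fold was 6.67 (4.21 to 10.1) in MCF10A and 19.5 (14.1 to 26.2) in G12V cells, intervals that did not overlap. The intervals take the local background as exact. That background was 2.18 times the genome-wide background in MCF10A replicate 2 and 1.16 times in G12V replicate 2, and its own error was not included. With 1 library in each cell type the folds compare those libraries and not the cell types. The site 12380 bp away (chr10:17291886-17292132) was called only in G12V replicate 2, at rank 22019 and fold 6.58.

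The p53 site (chr10:17289275-17289862) lay between genes, 2490 bp from the nearer of these CTCF sites, summit to summit. Its rank was 367 of 1718 and 349 of 885 in MCF10A and 495 of 2619 in G12V replicate 2, with folds of 13.7, 10.2 and 17.8 on 39, 18 and 66 fragments. The G12V fold was above both MCF10A folds, with a counting interval (13.9 to 22.6) that overlapped theirs (9.85 to 18.6 and 6.26 to 15.8). All 3 peaks stood above the middle of their lists, at rank percentiles of 78.7, 60.6 and 81.1. G12V replicate 1 had no p53 peak there, and its nearest one was 3488607 bp away. In its list of 477 peaks, 63.7% to 89.3% of peaks had a lower fold than those seen at VIM in the other libraries. Across the genome 18.9% of protein-coding genes had a p53 site in their window, and 1 of the 9 EMT genes did. Over all p53 sites, 57.7% had a peak in MCF10A replicate 1, 29.7% in MCF10A replicate 2, 16% in G12V replicate 1 and 87.9% in G12V replicate 2, and 48.5% were sites of 1 library, of which this was not one. The p53 sites of all 4 libraries were 0 of 1 here, beside 11.1% of all p53 sites. MCF10A-specific p53 sites were 0 of 1, beside 2.18%, and G12V-specific p53 sites 0 of 1, beside 1.41%.

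FN1, which encodes the matrix glycoprotein fibronectin, had neither a CTCF nor a p53 peak within 50 kb of its 75634 bp body in any of the 8 lists.

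**Figure D3:**
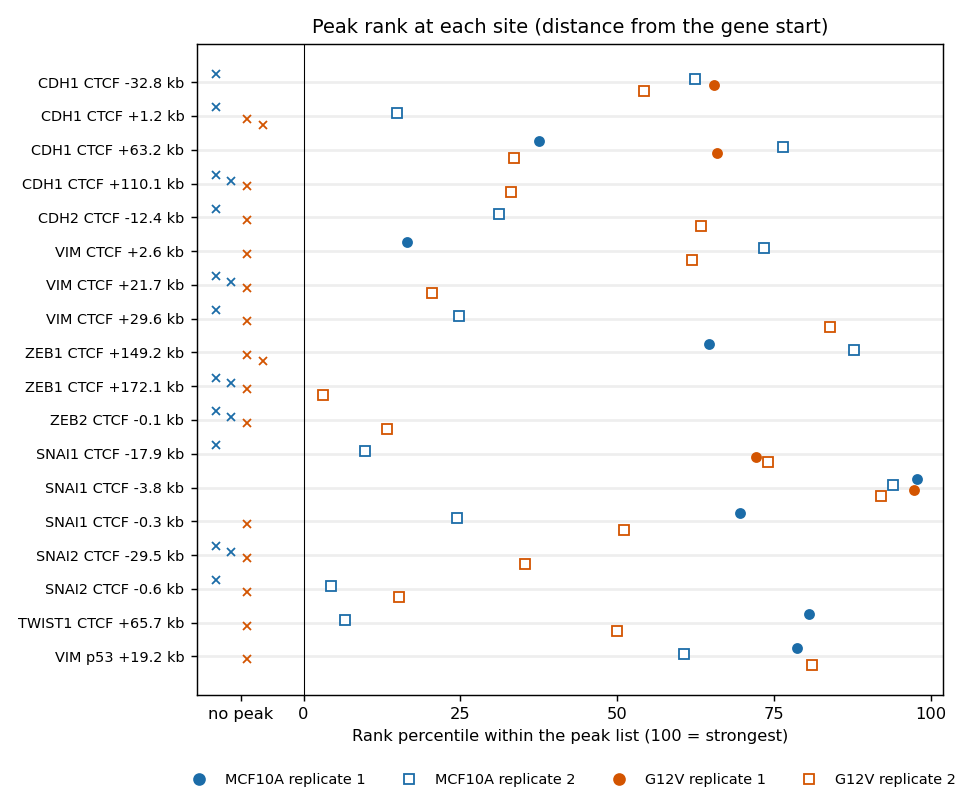
Rank percentile of the peak in its list (horizontal axis, 100 is the strongest) at each site, named by gene, factor and distance in kb from the start of the MANE Select transcript. Circles are replicate 1 and squares replicate 2, blue is MCF10A and orange G12V, and crosses mark libraries with no peak. The strongest SNAI1 site stands at 92.1 or above in every library, and the upper of the ZEB1 entries has blue marks only.

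Among the transcription factor genes, ZEB1, a zinc finger repressor of CDH1, carried the only MCF10A-specific site. It lay in an intron (chr10:31757115-31757593, 149250 bp after the start) at rank 4014 of 11346 and 2449 of 20136 in MCF10A, with no peak in either G12V list. Fold enrichment was 8.64 (5.85 to 12.4) on 27 fragments and 17.4 (12.2 to 24.1) on 34 fragments. The site stood at rank percentiles of 64.6 and 87.8, where the median of the 76 MCF10A-specific CTCF sites was 23.1 and 32.9, and it was number 5 of the 76 by the sum of its ranks. In the list of G12V replicate 1, 72.7% of peaks had a fold below 8.64 and 99.6% a fold below 17.4. In the list of G12V replicate 2 the shares were 39.6% and 86.4%. Folds of different libraries are not on a common scale, and the median fold of the G12V lists was 7.16 and 9.99, beside 7.10 and 8.89 for the MCF10A lists. The cause of the missing peaks was not tested. The nearest peak was 22414 bp away in G12V replicate 2 and 368182 bp away in G12V replicate 1.

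That nearer peak was the second ZEB1 site (chr10:31780007-31780443), also intronic and called in G12V replicate 2 alone. It was among the weakest peaks of its list, at rank 26814 of 27678 and fold 3.95. ZEB2, the paralog, had 1 CTCF site over exon 1 at the shared start with ZEB2-AS1 (chr2:145277647-145277930), called in G12V replicate 2 alone at rank 24003 and fold 5.95. Neither ZEB gene had a p53 peak in its window.

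**Figure D4:**
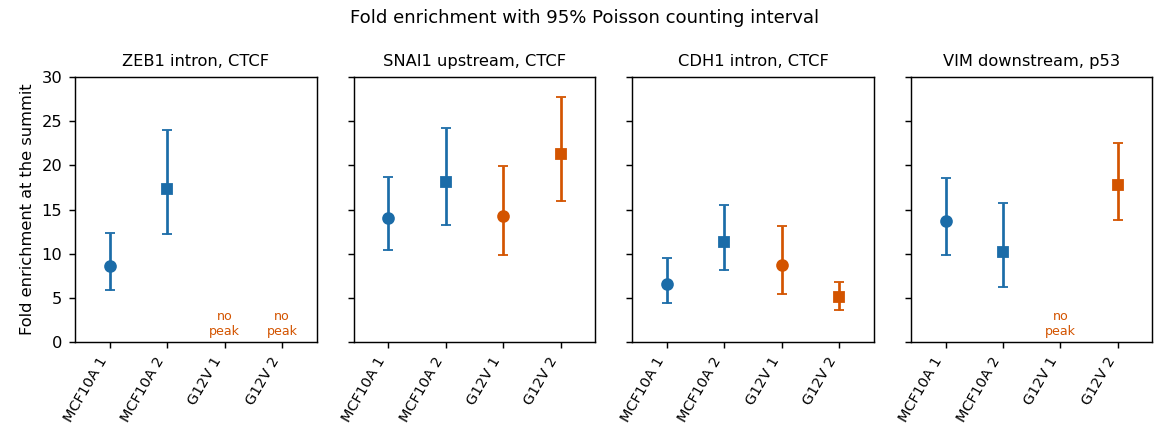
Fold enrichment at the summit (vertical axis) in each library for 4 sites, with bars giving the 95% Poisson interval of the fragment count. The SNAI1 site has folds of 14.1 to 21.3 in all libraries, the ZEB1 site has values in MCF10A only, and the CDH1 values of the cell types overlap. At VIM the single G12V value of 17.8 is above both MCF10A values, with an interval that overlaps theirs.

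SNAI1, the gene of the repressor Snail, had the strongest CTCF site of the set. The site 3841 bp upstream (chr20:48595419-48595905) stood at rank 247 and 1194 in MCF10A and 326 and 2183 in G12V cells. Its folds reached 14.1 and 18.1 in the MCF10A replicates, against 14.2 and 21.3 in the G12V replicates, on 45, 44, 32 and 52 fragments. The cell types overlapped in both measures, and the replicates of each cell type lay further apart in fold than the means of the cell types. Over all CTCF sites of 4 libraries, 21% had rank percentiles higher in both G12V than in both MCF10A libraries and 9.49% lower in both. Of the SNAI1 and CDH1 sites, 0 of 2 separated either way. The median difference between the cell types over the pair was -4.25 rank percentile points, against a replicate SD of 18.0.

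A further SNAI1 site lay 17948 bp upstream (chr20:48581380-48581790), with no peak in MCF10A replicate 1, rank 18163 in MCF10A replicate 2, and ranks 3352 and 7176 in the G12V lists. Its folds were 6.06 (3.50 to 9.88) in MCF10A replicate 2 and 9.46 (5.96 to 14.4) and 13.8 (10.1 to 18.4) in the G12V libraries. Both G12V values were above the single MCF10A value, and its counting interval overlapped that of G12V replicate 1 but not that of G12V replicate 2. The promoter site (chr20:48598982-48599395), with its summit 349 bp before the start, was called at rank 3447 and 15219 in MCF10A and 13521 in G12V replicate 2. Its folds were 9.08, 6.67 and 7.88, within each other's counting intervals, and it was missing from G12V replicate 1. The nearest peak in that library was the strong upstream site, 3106 bp away.

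SNAI2, the gene of the related repressor Slug, had a weak CTCF site at its start (chr8:49834214-49834738), which also overlapped an exon of a long non-coding RNA. It was called at rank 19239 of 20136 in MCF10A replicate 2 and 23475 of 27678 in G12V replicate 2, with folds of 4.19 and 5.40. A site 29226 bp upstream (chr8:49863361-49863817) was called in G12V replicate 2 alone, at rank 17924 and fold 9.87.

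TWIST1, a basic helix-loop-helix factor, had 1 CTCF site (chr7:19091405-19091770). It lay in an intron of a long transcript model, 65689 bp from the start of the MANE Select transcript, and would be outside the window if the gene were taken as that transcript. The ranks were 2206 of 11346 and 18801 of 20136 in MCF10A and 13826 of 27678 in G12V replicate 2, with folds of 10.7, 4.38 and 10.0. The MCF10A replicates stood apart from each other in fold, with the G12V value near the higher one. The summits held 29, 22 and 31 fragments in the same order. The local background was 1.00, 4.36 and 2.27 times the genome-wide background, so the low fold in MCF10A replicate 2 stood on the highest local background. No p53 peak lay near SNAI1, SNAI2 or TWIST1.

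As a whole, the member peaks were spread over the lists. The median rank percentile was 67.1 over the 6 peaks of MCF10A replicate 1 and 27.9 over the 12 of MCF10A replicate 2. It was 69.0 over the 4 peaks of G12V replicate 1 and 50.0 over the 15 of G12V replicate 2. All 4 peaks of G12V replicate 1 stood at 65.5 or above, whereas 2 of 6, 7 of 12 and 7 of 15 peaks stood below the middle of the list in MCF10A replicate 1, MCF10A replicate 2 and G12V replicate 2. No protein-coding gene was singled out as having the pattern most like a member, since at least 5 other genes had exactly the same peak numbers in all 8 libraries as any of the 9.

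A list of 42 other EMT genes (epithelial junction and keratin genes, mesenchymal matrix genes, and regulators including the TGF-beta pathway) was described in the same way. A CTCF site lay in the windows of 41 of them (97.6%, beside 85.7% of all genes), and a CTCF site of all 4 libraries in 28 (66.7%, beside 51.8% of all genes). MCF10A-specific CTCF sites were present at 0 of the 42, beside 0.777% of all genes, and G12V-specific CTCF sites at 3 (7.14%, beside 7.90% of all genes). These were near the transcription factor genes TCF4 (rank 6341 and 19564 in the G12V lists) and TWIST2 (7923 and 21358), and near TGFB1, a ligand that induces EMT (7271 and 13119). A p53 site was present at 8 of the 42 (19.0%, beside 18.9% of all genes). A p53 site of all 4 libraries was present at 1 of the 42 (2.38%, beside 2.41% of all genes). It lay in the window of ACTA2, which encodes smooth muscle actin, with its summit 9 bp from the start of the longest ACTA2 model. It was 37848 bp from the start of the MANE Select transcript of ACTA2, and it covered the start of the neighbouring death receptor gene FAS. It stood at rank 591 and 831 in MCF10A and 126 and 150 in G12V cells. Its folds reached 11.5 and 4.39 in the MCF10A replicates, against 12.8 and 29.9 in the G12V replicates, so that both G12V values were higher. No counting interval was worked out for these folds. Over all p53 sites of 4 libraries, 12.7% had rank percentiles higher in both G12V than in both MCF10A libraries and 14.5% lower in both. G12V-specific p53 sites were present in 2 of the 42 windows (4.76%, beside 0.453% of all genes). One lay in the window of TJP1, which encodes the tight junction protein ZO-1, 131058 bp from the start of its MANE Select transcript (rank 458 and 1254). The other lay in the window of TGFB1, 91427 bp from its MANE Select start and 1 bp from the start of HNRNPUL1 (rank 335 and 1297).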

How the data were processed

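ChIP-seq of CTCF and of p53 was examined in MCF10A and G12V cells, with 2 libraries per factor and cell type. The 8 input libraries had no file used here. Per the labels and the study's methods, the authors aligned reads to hg19 with Bowtie, kept unique reads and called peaks against the input with MACS2, using its human genome size and otherwise default settings. The MACS2 version is not given in the sources used here. The methods combine replicates, whereas the deposited lists were called on 1 library each. The deposited columns hold a display score, the fold enrichment at the summit (a ratio to the local background), and −log10 of the p-value and of the q-value. Samples were grouped by genotype and antibody label. The methods call the replicates biological, without naming separate cultures, so p-values measure the spread between these libraries. In the list of p53 G12V replicate 1 the peaks bear a tag in their names that no other list has, and its meaning is not given.

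Peaks were ranked within a list by −log10 q, then −log10 p, then fold. Gene bodies came from GENCODE 44 lifted to GRCh37, with 50 kb added on each side, and peaks sharing at least 1 base were joined. No peak ran past a chromosome end of the GRCh37 primary assembly, from which all sequences were read. All 9 genes and every site in their windows were named. Of the 42 other EMT genes, those with a site specific for 1 cell type or a p53 site of all libraries were named. The members and lists were chosen with earlier results of these data known. Fragments at the summit, local background and the reads behind each list were recovered from the fold and p-value with that genome size, and the recovery was tested on simulated data, where at least 99.2% of peaks got the right fragment number. PCR copies cannot be told from separate molecules, so intervals cover counting error only. They take the local background as exact, so error in the background is left out. Motifs were searched in 150 bp around the summit on both strands. Group differences used an exact two-sided permutation test over libraries, whose smallest p with 2 libraries a group is 0.33. No test was run on single sites. Python 3.11.15, numpy 2.4.6, pandas 2.3.3, scipy 1.17.1 and matplotlib 3.10.9 were used. Alternatives were windows of 10 and 100 kb, lists cut to equal length, a −log10 q of at least 5, a stricter overlap, ranking by fold, other motif settings, each library left out, and a replicate block.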

Additional observations from a re-analysis of the deposited data

How the results depend on the processing

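None of the alternatives could add a G12V peak at the ZEB1 intron site, so they do not bear on its call. The difference in the number of CTCF peaks (0.5 more in G12V cells) had no stable direction. It was -2 with a 10 kb window, -1 with lists of 11346 peaks each and 0 with a −log10 q of at least 5, and it ran from -5 without G12V replicate 2 to 6 without G12V replicate 1, with -2.5 without MCF10A replicate 1. The mean CTCF share stayed lower in G12V cells under every alternative, but the size of the difference varied. It ran from -0.0235 percentage points with a 10 kb window to -0.00204 without G12V replicate 1. CTCF sites of all 4 libraries (2) became 6 with a 100 kb window, 1 with lists of equal length, where the CDH1 intron site was lost, and 2 to 5 with a library left out (5 without G12V replicate 1, 4 without MCF10A replicate 1). CTCF sites specific for MCF10A (1) ranged from 1 to 4 with a library left out, with 4 without G12V replicate 2. CTCF sites specific for G12V (0) became 1 with lists of equal length, the SNAI1 site 17948 bp upstream, and ranged from 0 to 5 with a library left out, with 5 without G12V replicate 1. The rank percentile difference of the SNAI1 and CDH1 sites ranged from -13.6 to 5.12 with a library left out, within the replicate SD of 18.0. The CTCF motif share rose to 76.5% with 1 more mismatch. That setting, and the MANE Select transcript as gene body, which removed the TWIST1 site and changed no direction, were chosen after seeing the data.

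For p53, the VIM site was missing from G12V replicate 1 only, so the difference in peak number (-0.5) ranged from -1 to 0 with a library left out and was 0 without G12V replicate 1. Sites of all 4 libraries then ranged from 0 to 1. Sites specific for MCF10A were 1 with lists cut to 477 peaks, since the VIM peak of G12V replicate 2 stood at rank 495, and ranged from 0 to 1 with a library left out. With no p53 site of all 4 libraries, the rank percentile of such sites had no value. The labels number the replicates in both cell types. A replicate block left the CTCF difference at 0.5 (exact permutation p = 1) and the p53 difference at -0.5 (exact permutation p = 1), where pairs cannot go below 0.5. The deviations of same-numbered libraries correlated at 0.0422 for CTCF and -0.0511 for p53 across sites, and nothing in the labels ties them. What a missing peak means is limited, since a list gives no value below its threshold. For CTCF the length of a list did not follow its estimated reads, as the library with the most reads had the shortest list.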
